A study of Homo sapiens with 3 samples.

Results

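The small heat shock proteins of the human genome were followed in chambered cardiac organoids (CCOs) at days D8, D14 and D21 of differentiation. This was done through 7 genes: HSPB1, HSPB2, HSPB3, HSPB6, HSPB7, HSPB8 and CRYAB. The 7 were listed by name, out of the 32738 genes of the count table, and chosen by their levels across days and cell groups in an earlier look at these libraries, so those levels are given as a description and were not put to a test. The CCOs were made from H7, an established human embryonic stem cell line, by directed differentiation to cardiomyocytes (CMs) and aggregation of the cells in Matrigel. They were kept after aggregation in a growth medium holding, among other factors, Wnt-3A, EDN1, EGF and FGF-2, and from D14 in RPMI with B27 in a spinner flask. Whole CCOs were dissociated with TrypLE at D8, D14 and D21, and each day gave 1 droplet library of single cells. The labels name no genetic change and no treatment group for these libraries, and all cells descend from a single cell line. Because each day is 1 library, day and library cannot be told apart, nor at D21 the change of medium, there is no replicate error, and every interval below is a 95% interval that covers counting error only.

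Small heat shock proteins are short chaperones that share an alpha-crystallin domain, assemble into dimers and larger oligomers, and hold partly unfolded proteins until ATP-driven chaperones such as HSPA8 refold or remove them. Heart and skeletal muscle are among the tissues richest in them, and there they associate with actin, desmin, titin and the Z-disc. HSPB1 and CRYAB are widely made and are classical heat shock genes, HSPB8 works with the co-chaperone BAG3 in the removal of damaged filamin, and HSPB7 is a cardiac member that binds filamin C. HSPB6 is known from smooth and striated muscle, where it is a target of cyclic nucleotide-dependent kinases, and HSPB2 and HSPB3 are muscle members that bind each other.

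The sequence upstream of the transcription start is shown for 4 of the members: HSPB1, the most abundant, HSPB3, with the widest range between days, HSPB6, highest outside CM-like cells at D21, and HSPB7, the cardiac member. Each line holds the 250 bases upstream of the RefSeq start, read 5′ to 3′ on the strand of the gene, in build GRCh38.p14: HSPB1 on the plus strand of chr7:76302423-76302672, HSPB3 on the plus strand of chr5:54455449-54455698, HSPB6 on the minus strand of chr19:35757030-35757279 and HSPB7 on the minus strand of chr1:16018044-16018293. Capitals mark matches to a pair of heat shock units (GAANNTTC or TTCNNGAA), to TATAAA and to the MEF2 site, all searched on both strands.
HSPB1: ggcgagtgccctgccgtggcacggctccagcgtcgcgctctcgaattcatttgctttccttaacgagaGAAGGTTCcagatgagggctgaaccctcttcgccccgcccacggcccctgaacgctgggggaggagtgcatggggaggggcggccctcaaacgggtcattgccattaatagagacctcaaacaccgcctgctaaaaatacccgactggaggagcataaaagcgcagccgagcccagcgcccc
HSPB3: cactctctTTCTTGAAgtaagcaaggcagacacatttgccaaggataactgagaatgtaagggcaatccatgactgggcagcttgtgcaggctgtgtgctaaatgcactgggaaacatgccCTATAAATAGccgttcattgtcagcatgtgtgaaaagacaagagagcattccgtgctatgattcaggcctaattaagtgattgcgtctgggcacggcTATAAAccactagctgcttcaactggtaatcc
HSPB6: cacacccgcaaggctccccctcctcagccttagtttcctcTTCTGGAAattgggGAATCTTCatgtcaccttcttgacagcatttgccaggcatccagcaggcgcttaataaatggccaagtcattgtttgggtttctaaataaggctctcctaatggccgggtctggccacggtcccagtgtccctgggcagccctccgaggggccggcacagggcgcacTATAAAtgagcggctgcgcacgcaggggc
HSPB7: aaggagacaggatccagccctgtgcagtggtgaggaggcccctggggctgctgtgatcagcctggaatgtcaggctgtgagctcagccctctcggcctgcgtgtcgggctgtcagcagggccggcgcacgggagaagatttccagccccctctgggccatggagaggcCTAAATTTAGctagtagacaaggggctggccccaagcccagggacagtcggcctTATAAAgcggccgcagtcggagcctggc

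RefSeq promoters were matched for 5 of the 7 members, the fifth being HSPB8 on the plus strand of chr12:119178681-119178930. A heat shock pair was found in 4 of the 5 (HSPB1, HSPB3, HSPB6 and HSPB8), and 11.6% of all 35116 RefSeq promoters hold one over the same length. HSPB7 had none in this window, and HSPB6 had 2, starting 210 and 196 bases upstream of the start. TATAAA was found in HSPB3, HSPB6 and HSPB7, where the copy nearest the start began 32, 29 and 28 bases upstream, and 10.7% of all promoters hold it. The MEF2 site, bound by MEF2 factors in muscle genes, was found 129 bases upstream of HSPB3, where it overlaps a TATAAA, and 82 bases upstream of HSPB7, against 2.8% of all promoters. A CArG box, the site of serum response factor, was found in 0 of the 5, against 1.16% of all promoters. These matches describe the letters of the reference and were not measured in the CCOs. HSPB2 and CRYAB were not among the promoters used here.

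On the 3 days 3563, 4615 and 9149 barcodes were counted, of which 2657, 3585 and 1946 were kept as cells because they had over 2000 but fewer than 7500 genes and less than 10% mitochondrial UMIs. A UMI marks 1 captured mRNA molecule, and a kept cell held 4007 to 95021 of them, with medians of 12282 to 15316 by day. The D21 library stood apart in that 47.8% of its barcodes had 10% or more mitochondrial UMIs, against 6.62% at D8 and 10.7% at D14. Between 9 and 14 cell barcodes were shared by any pair of libraries among the kept cells. Clustering without the members and without other chaperones gave 19 clusters. Cells named CM-like from their markers numbered 468 at D8 (cluster 6), 1140 at D14 (nearly all cluster 0) and 543 at D21 (clusters 5 and 17), which is 17.6%, 31.8% and 27.9% of the kept cells. TNNT2, ACTN2, TTN and the other 5 CM markers were each at least 2-fold above the other cells in clusters 6, 0 and 5, and their summed level in CM-like cells was 14063, 33612 and 74288 counts per 1000000 UMIs (CPM). Because the 3 sets of CM-like cells come from different clusters and libraries, a difference between days can also hold a difference in which cells were named. Markers of hepatic endoderm, a lineage that CMs do not belong to, moved with the day as well and summed to 28.5, 121 and 3530 CPM in CM-like cells. Whether they came there as free RNA or in doublets, and their part in the levels below, was not tested. Shares of cells are set beside those of an endoderm-rich cluster that received no name (cluster 7 at D8 and D14, cluster 10 at D21), called here the background cells.

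All 6 members that could be compared were higher in CM-like cells at D21 than at D8, from 2.76-fold for HSPB1 to 398-fold for HSPB3. By share of UMIs, HSPB1 was the most abundant on every day, and HSPB3 was the one that differed most between days, and HSPB2 stayed near the limit of detection. The counts in this table are of 3′ ends and do not scale with transcript length, and folds are read within a gene. At D14 against D8, 5 of the 7 members were at least 2-fold higher and none was at least 2-fold lower. Over all 9069 genes at 10 CPM or more in either day, 10.6% were higher by that much, and the median log2 ratio was 0.06 over all of them and 2.56 over the 6 members among them. At D21 against D14, 4 members were higher by 2-fold or more, where 5.03% of all genes were higher and 15.3% lower, with medians of -0.18 over all genes and 1.10 over the members. At D21 against D8 all 6 were, where 12.0% of all genes were, with medians of -0.12 and 3.41. The scaling moved the split over all genes: of the genes past 2-fold between D14 and D21, 24.8% were higher at D21 in CPM, 40.1% with TMM and 45.8% with median-of-ratios scaling, and between D8 and D21 it was 44.6%, 55.4% and 56.8%. The median over all genes between D14 and D21 was 0.05 with TMM and 0.12 with median-of-ratios scaling. HSPB3, HSPB6 and HSPB8 reached 10 CPM only through the later days and so had to be higher there, and HSPB2 never reached it. Over the alternatives tried, some of which named other D8 cells, the log2 ratio of D14 to D8 ran from 2.81 to 4.43 for CRYAB, 2.05 to 3.13 for HSPB7, 2.95 to 4.08 for HSPB8 and 4.24 to 5.61 for HSPB3. As the members were chosen with such levels known, nothing is read from these counts about the family.

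**Figure D1:**
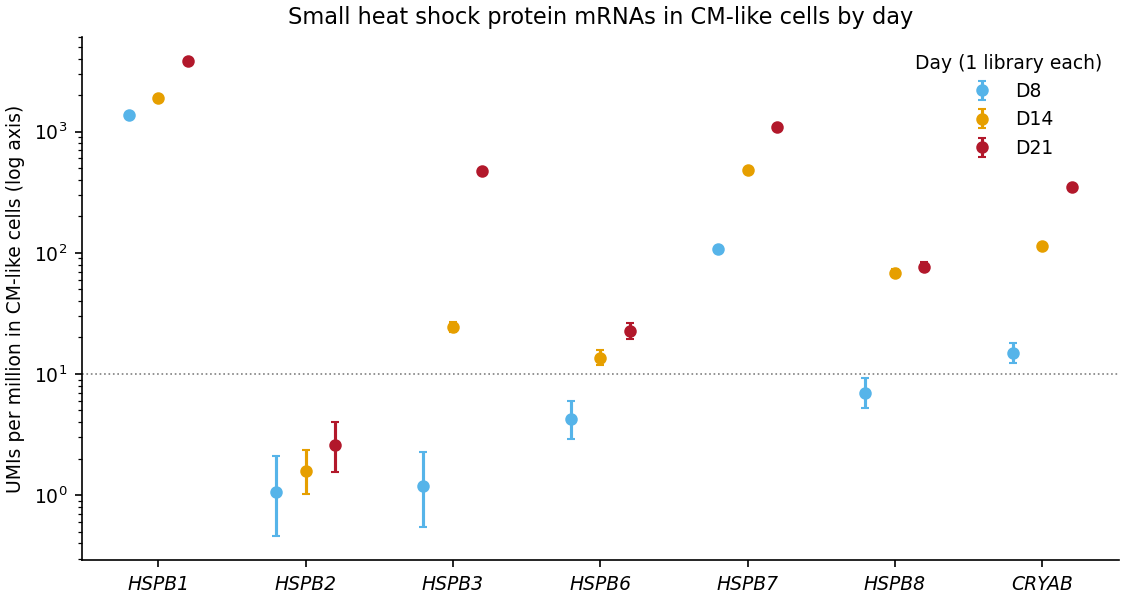
Level of each member in CM-like cells at D8, D14 and D21, in CPM on a log axis, with points for the summed UMIs of the 1 library of a day and bars for the exact Poisson 95% interval. HSPB3 spans 1.19 to 474.7 CPM, the widest range of the 7, and HSPB2 stays between 1.06 and 2.59 CPM.

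HSPB1, the broadly made member that caps and stabilizes actin filaments, had a level in CM-like cells of 1379 CPM (1352 to 1405) at D8, followed by 1902 CPM (1880 to 1924) at D14 and then 3805 CPM (3760 to 3850) at D21. The intervals of the 3 days do not overlap. The ratio was 1.38 (1.35 to 1.41) from D8 to D14 and 2.0 (1.97 to 2.03) from D14 to D21, so that this second ratio lies at the 2-fold limit and its side depends on the processing. After each cell had been thinned to 4000 UMIs, 95.1%, 99.1% and 100% of CM-like cells held an HSPB1 UMI, against 62.3%, 67.6% and 78.5% of background cells. The level in background cells was 249, 603 and 557 CPM, or 18.1%, 31.7% and 14.6% of the CM-like level, so HSPB1 was far from absent in them. The median thinned cell held 5, 6.5 and 14 HSPB1 UMIs on the 3 days, so the amount per cell differed.

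CRYAB, the alpha B-crystallin that binds desmin and titin, stood at 14.8 CPM in the D8 cells (12.2 to 17.9), followed by 114 CPM (109 to 119.97) and 346 CPM (333 to 359.8) on the later days. The D14 level was 7.71-fold that of D8 (6.37 to 9.42) and the D21 level 3.02-fold that of D14 (2.84 to 3.22). By day, 3.85%, 18.3% and 51.8% of thinned CM-like cells held a CRYAB UMI (unthinned 13%, 32.7% and 76.2%). The background cells held it in 0.778%, 3.81% and 8.14%. CRYAB was unevenly spread among CM-like cells: the variance of its thinned count was 2.33 times the mean at D8, 4.53 times at D14 and 3.85 times at D21, with single cells reaching 24 and 22 UMIs on the later days. For HSPB7, with a higher mean count, the ratio was 1.5 and 1.66 at D14 and D21, and for HSPB8 it was 1.16 and 1.02, close to that of counting alone. HSPB1, with a mean several times higher, had 3.39, 3.26 and 3.77 from D8 to D21.

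HSPB7, the cardiac member, was the second most abundant on every day, with 107 CPM (99.4 to 114) at D8, then 480.2 CPM (469 to 491) and then 1099 CPM (1076 to 1124). The D14 level was 4.50-fold that of D8 (4.19 to 4.85) and the D21 level 2.29-fold that of D14 (2.22 to 2.36). It was found in 32.3%, 78.7% and 95.6% of thinned CM-like cells, against 0.389%, 4.76% and 11.4% of background cells. At this equal depth HSPB7 was detected in a minority of CM-like cells at D8 and in nearly all at D21. The unthinned shares were 70.5%, 95.5% and 99.3%, so the D8 minority is a matter of detection at that depth.

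HSPB3, the muscle member that pairs with HSPB2, was almost undetected at D8, with 9 UMIs among 468 CM-like cells or 1.19 CPM (0.545 to 2.26). Its D14 level was 24.5 CPM (22 to 27.1) and its D21 level 474.7 CPM (459 to 491). The ratio was 20.5 from D8 to D14 (10.7 to 45.2) and 19.4 from D14 to D21 (17.4 to 21.7), so both steps were of similar size on the log scale within their intervals. In thinned CM-like cells the share with a UMI was 1.07%, then 7.63% (6.16 to 9.33) and 74.2% (70.3 to 77.8), while the unthinned shares were 1.71%, 17.9% and 91.2%. The background cells held HSPB3 in 0.476% of cells at D14 and 8.14% at D21, and the D14 share of CM-like cells was thus slightly below the D21 share of background cells, which come from a library with far more HSPB3.

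HSPB8, the partner of BAG3, had 7.02 CPM (5.26 to 9.19) in CM-like cells at D8, 68.5 CPM (64.4 to 72.8) at D14 and 77.0 CPM (70.7 to 83.6) at D21. The step to D14 was 9.76-fold (7.40 to 13.1) and that to D21 was 1.12-fold (1.0 to 1.25), with D14 and D21 intervals that overlap. HSPB8 thus was the only tested member in which nearly all of the difference lay before D14. The sign of its small D21 step turned under 4 of the alternatives tried. Of thinned CM-like cells 3.21%, 24.6% and 26.5% held a UMI by day, against 1.56%, 10.0% and 1.63% of background cells, so the background share was highest at D14.

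HSPB6, better known from smooth muscle, was low in CM-like cells, its 3 levels in order of day being 4.24 CPM (2.90 to 5.99), 13.7 CPM (11.9 to 15.6) and 22.8 CPM (19.5 to 26.5). The ratios were 3.22 (2.21 to 4.83) and 1.67 (1.35 to 2.06), and 7.0% of thinned CM-like cells held a UMI at D21. HSPB2, whose gene lies beside CRYAB in the opposite orientation, had 8, 24 and 19 UMIs in CM-like cells (1.06, 1.59 and 2.59 CPM). Counts this low set wide limits: the D21 level of HSPB2 was 2.45-fold that of D8 with an interval of 1.02 to 6.46, and the intervals of both single steps held 1, while its neighbour CRYAB differed 23.3-fold between D8 and D21. HSPB2 overlaps the readthrough gene HSPB2-C11orf52, which had 0 UMIs in CM-like cells on each day (a count of 0 allows up to 0.398, 0.199 and 0.409 CPM), so its level is uncertain where reads could be split between both.

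More members were found together in 1 CM-like cell on later days. At 4000 UMIs a cell, 4.49% of CM-like cells at D8 held UMIs of 3 or more members (2.80 to 6.78), against 36.8% at D14 (34.0 to 39.7) and 89.1% at D21 (86.2 to 91.6). In background cells the share was at most 3.58%. Within the CM-like cells of a day the members were only weakly related from cell to cell, with the highest Spearman correlation between members at D21 being 0.240 for HSPB1 and CRYAB over 543 cells, all of 1 library and with sparse counts.

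Most members were also higher in CM-like cells than in the other cells of the same library, and this difference does not rest on comparing libraries. At D8, 3 of the 7 members reached 10 CPM and all 3 were at least 2-fold higher in CM-like cells, where 6.23% of all genes were higher and 6.08% lower by that much: HSPB1 was 3.35-fold, CRYAB 5.82-fold and HSPB7 8.68-fold higher. These D8 folds depend on which cells are named and on whether the background level is subtracted: over the alternatives tried their log2 ratios ran from 1.46 to 2.80 for HSPB1, 1.17 to 5.44 for CRYAB and 2.62 to 5.02 for HSPB7. At D14, 5 members were, where 9.74% of all genes were higher and 7.17% lower. The D14 ratios were 2.79 for HSPB1, 5.85 for HSPB8, 8.39 for HSPB7, 14.2 for CRYAB and 23.2 for HSPB3. At D21, 5 members were, where 12.8% of all genes were, and the ratios ran from 3.82 for HSPB1 through 9.02 for HSPB8, 9.97 for CRYAB and 11.7 for HSPB7 to 13.9 for HSPB3. With the background level subtracted, the log2 ratio of HSPB1 at D14 was 4.03 in place of 1.48. The level subtracted was that of cluster 7, at 31.7% of the CM-like level, where TNNT2 was at 2.41%. Of the 2896 HSPB1 UMIs in that cluster, 826 came from 5 cells. How much of it was free RNA was not tested, so 4.03 is not taken as a corrected ratio. HSPB6 was the exception at the later days. At D8, below the limit of 10 CPM, it was at 4.24 CPM in CM-like and 1.22 CPM in other cells, but it was at 0.947 times the level of other cells at D14 and at 0.319 times at D21 (0.270 to 0.374), on the side where 15.7% of all genes were at least 2-fold lower. Reaching 10 CPM through CM-like cells alone made some of these members bound to differ, and no count of them is read as support.

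HSPB6 was highest in fibroblast-like cells at D14 and D21, a class with 554 cells at D14 (nearly all cluster 4) and 827 at D21 (cluster 3). Cluster 3 had 8 fibroblast markers and was led by COL1A2 and LUM among other genes. Cluster 4 had only 4 and was led by MGP and TMEM100 among other genes. Of the 8 fibroblast markers, 6 were at least 2-fold higher in the class at D21 than at D14, with a median of 3.06-fold. A difference between days in this class can thus also hold a difference in which cells were named. Its level there was 25.5 CPM (22 to 29.4) in the D14 cells and 124 CPM (117 to 130.4) in those of D21, a 4.85-fold difference (4.16 to 5.68). At D21 this was 5.43 times the level of CM-like cells (4.62 to 6.41), while the other tested members were all lower in fibroblast-like cells, with 28.6% of the CM-like level for HSPB1, 8.79% for HSPB8, 5.80% for HSPB7, 4.71% for CRYAB and 4.69% for HSPB3. HSPB6 was found in 32.0% of thinned fibroblast-like cells at D21, against 2.61% of the D21 background cells. At D14 its share in fibroblast-like cells was 6.68% (4.75 to 9.09). This was close to that of D14 CM-like cells (5.35%), the dividing cluster 8 (5.71%) and the unnamed cluster 2 (4.65%). The D14 levels of these 3 groups were 13.7, 16.8 and 15.5 CPM. A dividing cluster of D21 that also held 5 fibroblast markers (cluster 14) had 78.7 CPM of HSPB6 (67.9 to 90.7). The summed level of 8 smooth muscle markers moved in the same direction, from 986 CPM in fibroblast-like cells at D14 to 1889 CPM at D21, but it was 2039 CPM in the D21 CM-like cells, and MYH11, the marker most particular to smooth muscle, stood at 0.542 and 6.32 CPM in fibroblast-like cells. Whether smooth muscle cells within the class carry its HSPB6 was not tested.

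In the fibroblast-like cells 5 of the 7 members reached 10 CPM on either day, and 4 of them were at least 2-fold higher at D21 than at D14. Over all genes 5.08% were higher and 9.44% lower. Besides HSPB6 the 4 were HSPB3, with 0.271 and 22.2 CPM, CRYAB, with 3.12 and 16.3 CPM, and HSPB7, with 28.2 and 63.7 CPM. HSPB3 and CRYAB reached 10 CPM only through D21 and so had to be higher there, and the count is not read as support. HSPB1 differed less, with 866 and 1088 CPM. The CM gene TNNT2 moved in the same direction, from 69.6 to 497 CPM. At D21 the fibroblast-like cells held TNNT2 at 5.61%, ACTC1 at 4.09% and MYL7 at 3.76% of the CM-like level, a range that holds HSPB3 and CRYAB. HSPB7, at 5.80% (5.36 to 6.26), lay just above that range, with an interval that holds the TNNT2 value. HSPB1, HSPB6 and HSPB8 lay further above it. How much of the HSPB3, CRYAB and HSPB7 in these cells was free RNA was not tested.

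**Figure D2:**
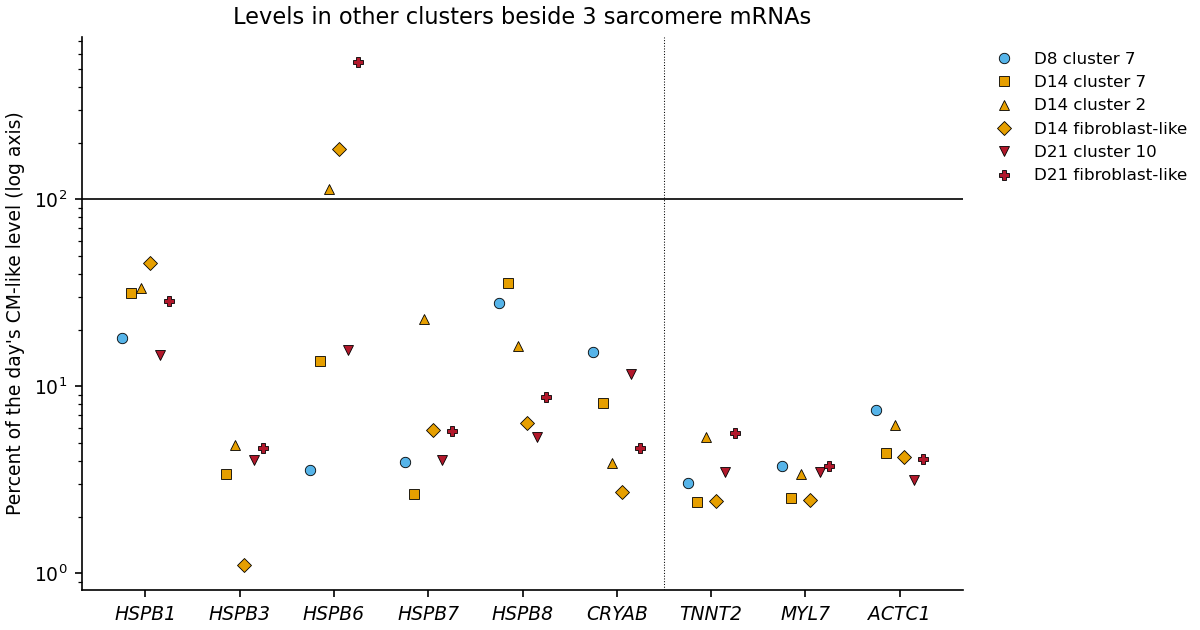
Level of 6 members and of the CM genes TNNT2, MYL7 and ACTC1 in other clusters as a percent of the CM-like level of the same day, on a log axis, with a line at 100% and levels of 0 left out. At D21 HSPB6 stands at 543% in fibroblast-like cells and HSPB1 at 28.6%, and the CM genes lie between 3.76% and 5.61%.

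Outside CM-like and fibroblast-like cells, single members departed from the level at which CM genes were found. HSPB7 was at 109.9 CPM (104 to 116) in the largest other cluster of D14, which had no name and was led by MFAP4 among other genes (cluster 2, 990 cells), or 22.9% of the CM-like level, where TNNT2 was at 5.39%. HSPB8 stood out at D8 in cluster 12, an unnamed cluster of 234 cells whose leading genes hold NPPB and the hypoxia-responsive genes NDRG1, ANKRD37 and HK2. It was at 19.7 CPM there (15.4 to 24.9), or 281% of the CM-like level, with TNNT2 at 20.7% and ACTC1 at 27.4%. This percentage rests on 70 HSPB8 UMIs in cluster 12 and 53 in CM-like cells, where HSPB8 was at 7.02 CPM. After thinning, 14 of the 234 cells held an HSPB8 UMI, against 15 of 468 CM-like cells. Cluster 12 held 43.6 CPM of HSPB7 and only 1.69 CPM of CRYAB. Cluster 11, unnamed and led by SFRP2, POU5F1 and SOX2, held HSPB8 at 9.57 CPM and CRYAB at 8.59 CPM at D8 with TNNT2 at 1.2% of the CM-like level, and at D14 18.3 CPM of HSPB8 and 19.97 CPM of CRYAB. These levels rest on few cells. After thinning, its CRYAB at D14 came from 2 of 77 cells, 1 of them with 7 UMIs. Its thinned HSPB8 at D8 came from 5 of 204 cells, 1 of them with 4 UMIs. In the D14 background cells HSPB8 was at 24.3 CPM (20.1 to 29.2), or 35.5% of the CM-like level, where TNNT2 was at 2.41%. At D21 HSPB8 was lower outside CM-like cells, at 4.12 CPM in background cells and 6.76 CPM in fibroblast-like cells. In D21 background cells CRYAB, at 40.4 CPM or 11.7% of the CM-like level, lay above TNNT2 at 3.5%. A single thinned background cell held 17 of the CRYAB UMIs of that group.

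HSPB1 was found in every cluster. In endothelial-like cells, 37 to 53 a day, its level by day was 872, 999.6 and 1024 CPM, or 63.3%, 52.6% and 26.9% of the CM-like level, with TNNT2 at 2.85% and 6.33% of it at D14 and D21. This level differed less between days than that of CM-like cells did. At D21, 3 small clusters held CM genes together with the members. Cluster 17, counted as CM-like but with no CM marker among its 10 leading genes, had 2727 CPM of HSPB1, 360 CPM of HSPB3, 858 CPM of HSPB7 and 175 CPM of CRYAB, each below the class as a whole. Cluster 16, unnamed, with 58 cells and MYL2 leading, had the members other than HSPB6 at 43.9% to 63.2% of the CM-like level, leaving out HSPB2, near TNNT2 at 51.3%, while HSPB6 was at 206% of it (148.5 to 281.3). After thinning, 8 of the 58 cells held an HSPB6 UMI, and 1 cell alone held 8 UMIs, so this level rests on few cells. Cluster 18, 31 dividing cells with 6 CM markers, had HSPB1 at 71.9% and HSPB8 at 23.7%. Without cluster 17 the D21 counts above were the same, and without clusters 16 and 18 among the other cells 5 members were at least 2-fold higher in CM-like cells. Cluster 17 lay below its class in these 5, and clusters 16 and 18 lay above the other cells as a whole. Neither removal could therefore lower the count of members called higher, and nothing is read from it.

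**Figure D3:**
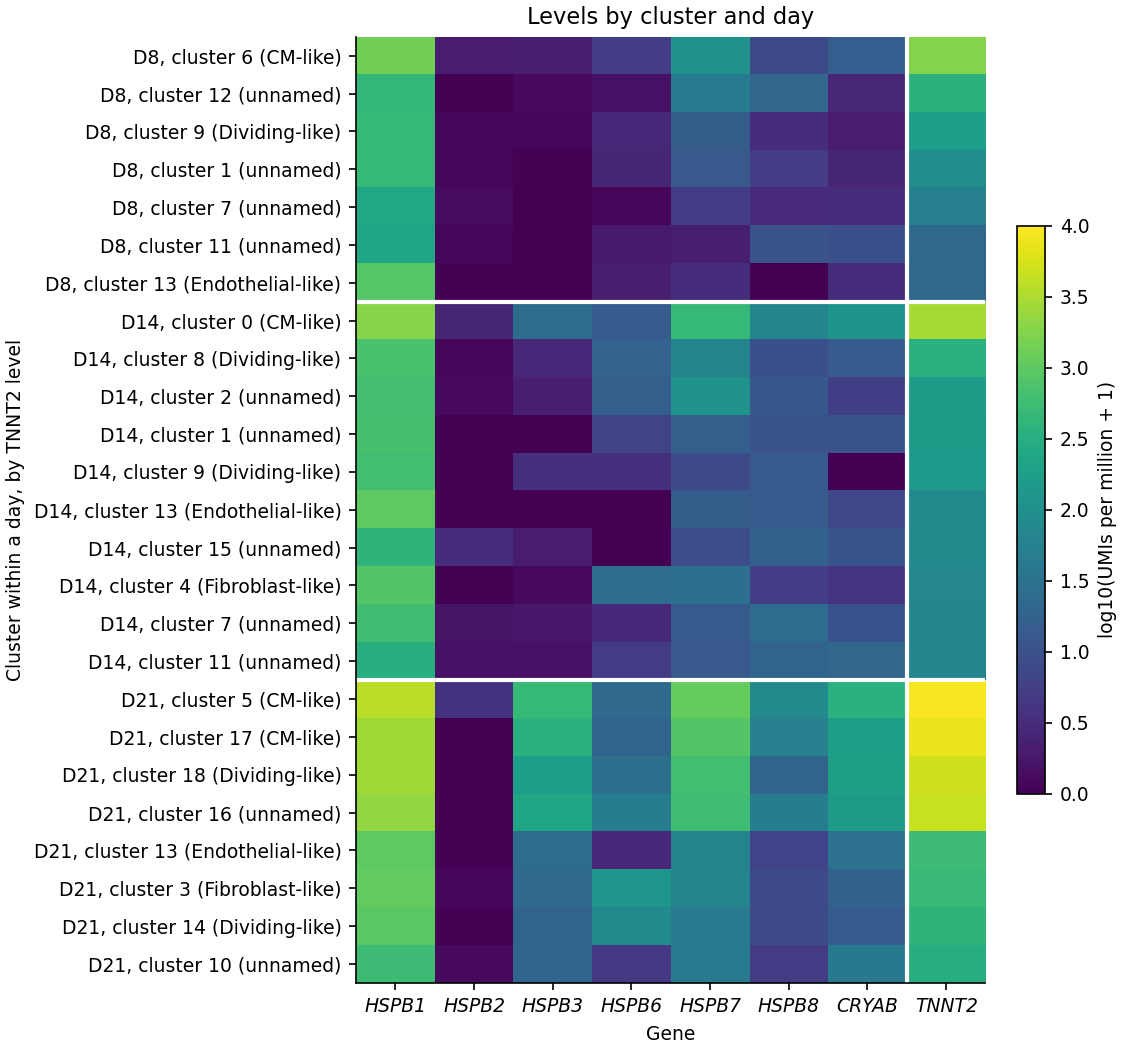
Level of each member and of TNNT2 (columns) in each cluster of a day with at least 20 cells (rows, by TNNT2 within a day), coloured by log10 of CPM plus 1. HSPB3, HSPB7 and CRYAB are brightest in the CM-like cluster 5 of D21, and HSPB6 in the D21 fibroblast-like cluster, at 124 CPM.

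Over the 25 units of 1 cluster on 1 day with at least 20 cells, the log2 levels of the members ran most alike for HSPB3 and CRYAB, with a Pearson correlation of 0.932, followed by HSPB7 and CRYAB at 0.894. The least alike were HSPB6 and HSPB8 at 0.256. Units of 1 day share a library, so these are descriptions with no test. Among 12530 genes, those most like HSPB3 were TRIM63 at 0.983, MYL2 at 0.982 and LINC00881 at 0.981, and those most like HSPB7 were SMPX at 0.976, PLN at 0.974 and ACTN2 at 0.966. For CRYAB they were POPDC2 and MYBPC3 at 0.956 and PGAM2 at 0.955, and for HSPB1 CRIP2 at 0.946, MEF2A at 0.928 and SVIL at 0.927. TRIM63 encodes a muscle ubiquitin ligase, PLN the inhibitor of the calcium pump, and MYL2, ACTN2 and MYBPC3 sarcomere proteins. HSPB6 was most like PRDM6 at 0.932 and MGP and LINC00473 at 0.912, PRDM6 being a regulator of smooth muscle genes and MGP an inhibitor of calcification. The likeness was lowest for HSPB8, with FGF18 at 0.857, FHL2 at 0.845 and LPAR3 at 0.844.

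Mitochondrial share moved with day and with some members. CM-like cells had a median of 2.82%, 5.02% and 8.41% mitochondrial UMIs at D8, D14 and D21, so levels were taken again in cells clustered without that limit, over non-mitochondrial UMIs. This clustering named 966 D8 cells CM-like in place of 468. At D8 the 825 cells under 5% and the 133 from 5% to 10% held CRYAB at 6.12 and 21.7 CPM. In the same D8 bins HSPB7 was at 59.6 and 105 CPM, HSPB1 at 988 and 1323 CPM and TNNT2 at 846 and 1963 CPM. At D14 CRYAB was at 59.0 CPM in the 474 cells under 5%, 193 CPM in the 532 cells from 5% to 10% and 259 CPM in the 144 cells from 10% to 15%. HSPB3 went from 15.3 to 38.7 and 44.9 CPM over the same bins, HSPB7 from 491 to 579.5 and 651 CPM, and HSPB1 from 1982 to 2205 and 1988 CPM, while TNNT2 was at 2965, 3514 and 3628 CPM. At D21 the bins under 5% (25 cells), 5% to 10% (415), 10% to 15% (743), 15% to 20% (456) and 20% or more (274) held CRYAB at 520.5, 384, 377, 349 and 287 CPM. HSPB3 stood at 255, 554, 492, 445 and 405 CPM in them, and HSPB7 at 1415, 1245, 1365, 1430.3 and 1483 CPM. Thus CRYAB was lower at a higher mitochondrial share at D21 and higher at D14, while HSPB3 was lowest in the bin under 5% on both days. In the 5% to 10% bin of both days the D21 level was above the D14 level for CRYAB (384 against 193), HSPB3 (554 against 38.7), HSPB7 (1245 against 579.5) and HSPB1 (4339 against 2205).

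Of the other small heat shock proteins listed (CRYAA, HSPB9, ODF1 and HSPB11), HSPB11, which works in intraflagellar transport, was the only 1 of 4 to reach 10 CPM, with 69.6, 40.4 and 41.8 CPM in CM-like cells. The larger chaperones did not share the course of the members from D8 to D14. Of the 20 listed, 17 were at 10 CPM or more. At D14 against D8 none of the 17 was at least 2-fold higher and 7 were at least 2-fold lower, with a median ratio of 0.565. Over all genes 10.6% were higher and 2.13% lower by that much. HSP90AA1, the inducible HSP90, was at 1940, 735 and 1652 CPM, and its constitutive counterpart HSP90AB1 at 1816, 726 and 788 CPM. HSPA8, the constitutive HSP70, was at 513, 221 and 512 CPM. At D21 against D14, 3 of the 17 were at least 2-fold higher, HSPA1A by 3.49-fold, HSPA8 by 2.31-fold and HSP90AA1 by 2.25-fold. None was as much lower, where 5.03% of all genes were higher and 15.3% lower. At D21 against D8, none was higher and 4 were lower by that limit, where 12.0% of all genes were higher and 14.9% lower. The 6 members were all higher, but they were chosen with their levels known. Of them HSPB3, HSPB6 and HSPB8 passed the filter only through later days and had to be higher. The contrast with the larger chaperones is thus a description only.

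**Figure D4:**
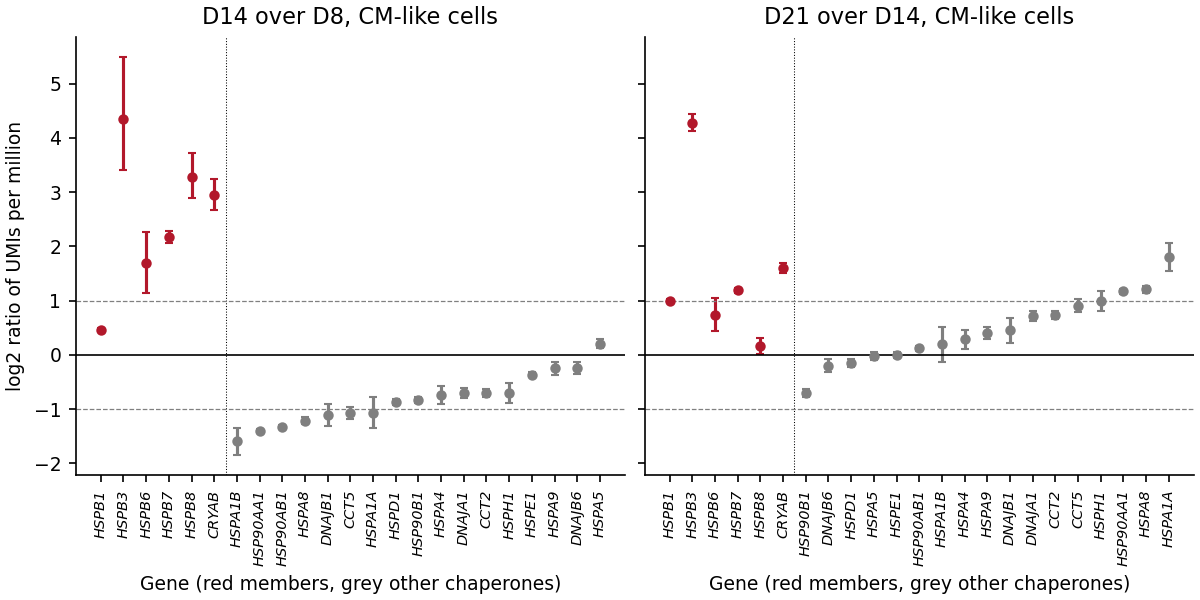
Log2 ratio between successive days in CM-like cells for the members (red) and the other listed chaperones (grey) at 10 CPM or more, with exact 95% counting intervals and dashed lines at 2-fold. From D8 to D14 the 6 members lie above 0 and most chaperones below, with HSP90AA1 at -1.40, and from D14 to D21 HSPB3 lies highest, at 4.28.

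The listed partners and regulators differed among themselves. BAG3, the co-chaperone that joins HSPB8 to HSPA8, was at 18.02, 35.8 and 73.1 CPM in CM-like cells, a ratio of 4.06 between D21 and D8 (3.36 to 4.94), and at D21 it was 2.99-fold higher in CM-like than in other cells. FLNC, the filamin that HSPB7 binds, was at 68.3, 143 and 231 CPM and 6.16-fold higher in CM-like than in other cells at D21. SYNPO2, the Z-disc protein that acts with BAG3, was at 4.90, 15.3 and 34.3 CPM. DES, the intermediate filament to which CRYAB binds, went the other way at D21, with 14.6, 71.1 and 19.5 CPM. Of the heat shock factors, HSF1 was at 41.6, 71.8 and 75.5 CPM and HSF2 at 27.6, 24.6 and 24.8 CPM. In all, 3 of the 8 partners at 10 CPM or more were at least 2-fold higher and 1 lower at each step (HSPA8 lower at D14, DES lower at D21), where 10.6% and 2.13% of all genes were higher and lower at D14 against D8, and 5.03% and 15.3% at D21 against D14. Immediate early genes, which enzymatic dissociation is known to raise, summed to 463, 1512 and 903 CPM in CM-like cells, with 7 of 8 at least 2-fold higher at D14 than at D8, where 10.6% of all genes were. The 6 hypoxia genes summed to 1029, 1109 and 218 CPM. The part of either in the members' levels was not tested.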

How the data were processed

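The deposited table gives whole UMI counts, not normalized by the authors, for each gene in 17327 barcodes, and the labels name Cell Ranger, Seurat 3.2.1 and build hg19. The ending of each column name gave its library. The study's limits on genes and mitochondrial share left the numbers of cells it states for D14 and D21 but not for D8. Clusters were made with Seurat 5.3.0 (R 4.3.3) on log-normalized counts (10000 per cell), with the 3 days in a single run and no integration, from 20 principal components of 2000 variable genes less 14 members and chaperones, at resolution 0.8. Each cluster was judged among the cells of its largest day (at least 20 of its own) by how many markers of a class exceeded the remaining cells 2-fold with 10 CPM added to both. It took a name with 3 such markers and 2 more than any other class, unless more of its 10 leading genes marked another class or it was very shallow (under the median depth of that day divided by 3). Those thresholds were set after seeing the data, PECAM1 is not in the table, and 3530 cells stayed unnamed. The members and lists were chosen with earlier results of these data known.

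UMIs were summed per day and class and given as CPM with exact Poisson intervals. Ratios have Clopper-Pearson intervals from the split of the sums, and a gene was called at 2-fold or more among genes at 10 CPM or more in either group. Named genes were the 7 members, the genes of the lists and the 3 genes most like each member in Pearson correlation of log2(CPM + 10). Cells were thinned to 4000 UMIs for shares. Where a count of 0 is given a limit, it is that of 3 counts. With 1 library per day no p-value was computed. Scrublet marked 1, 1 and 7 cells (0.360% at D21), so it has not worked here and doublets were kept. The steps were tested on simulated data. Alternatives covered limits on cells, clustering, scaling, gates, thinning, filters and fold limits, as in the closing section. Other tools were edgeR 4.0.16 (TMM factors), Matrix 1.6.5, Python 3.11.15, anndata 0.12.19, scanpy 1.11.5, scipy 1.17.1, numpy 2.4.6, pandas 2.3.3 and matplotlib 3.10.9. Promoter sequences are RefSeq's in GRCh38.p14, another build than that of the counts, and no coordinates were taken from the counts. Imaging, RT-qPCR and EDN1 experiments were not analysed here.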

Additional observations from a re-analysis of the deposited data

Results flagged for a closer look

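Barcodes outside the limits on genes and mitochondrial share entered no comparison, and 8 member levels in them were at least 2-fold above the kept cells of the same library. At D14 there were 1030 such barcodes, with a median of 2198 UMIs and 8.74% mitochondrial UMIs, and the fold over kept cells was 4.72 for HSPB2 (15 UMIs), 3.63 for CRYAB, 3.27 for HSPB3, 2.07 for HSPB8 and 2.04 for HSPB7. TNNT2 was 2.49-fold higher in them. At D21 there were 7203, with a median of 1845 UMIs and 11.7% mitochondrial UMIs, and the fold was 2.47 for HSPB7, 2.32 for HSPB8 and 2.10 for HSPB3, beside 2.18 for TNNT2. HSPB6 was lower outside the limits, at 0.300 times the level of kept cells at D14 and 0.350 times at D21. Below the 2-fold limit, HSPB1 was 1.32-fold higher outside at D14, and at D21 CRYAB was 1.93-fold, HSPB1 1.31-fold and HSPB2 1.18-fold higher. What those barcodes are was not tested.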

How the results depend on the processing

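Of 109 counts of members past 2-fold under an alternative, 107 lay within 1.5 times the reported count. With a fold limit of 3, 2 members were higher at D21 than at D14 in place of 4, and with no filter on low levels 6 were higher in CM-like than in other cells at D8 in place of 3, which the filter itself sets. The D21 against D14 count ran from 3 to 5 under other settings of cells, clusters and scaling, as the log2 ratios of HSPB1 (0.67 to 1.32), HSPB6 (0.71 to 1.21) and HSPB7 (0.96 to 1.5) lay on both sides of 1. Of 630 member ratios under an alternative, 620 kept their sign and 85 moved by over 1.5 times, all where other cells were kept, named or compared or the background level was subtracted. The 10 others were 8 of HSPB8, at D21 against D14 (down to -0.10) and in CM-like against other cells at D8 (down to -0.44), and 2 of HSPB2, down to -0.23, and the cause was not tested. A mitochondrial limit of 5% left 2 CM-like cells at D21 and gave no D21 value. CM-like cells of D8 numbered 435 to 1200 by setting, with HSPB7 at 61.9 to 107 CPM in them, so the D8 levels rest most on the clustering. With 1 library a day, no library could be left out. No paired analysis was possible because each day is a single library and no test was made.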

Other observations

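HSPA6, a strictly inducible HSP70 gene and 1 of the listed chaperones, was chosen for mention after its values were seen. At D8 it had 428 UMIs in cells other than CM-like cells (10.9 CPM) and 1 UMI in CM-like cells. They were in few cells: in cluster 12, the unnamed cluster with NPPB and NDRG1 among its leading genes, 86 UMIs (24.2 CPM) came from 11 cells, 75 of them from the 5 highest and 40 from a single cell. In cluster 1, 128 UMIs came from 35 cells, and in the background cells 86 UMIs from 22 cells. The kept cells held 15 HSPA6 UMIs at D14 and 17 at D21. Cluster 12 as a whole held HSPB1 at 438 CPM, against 1379 CPM in CM-like cells of that day.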
